A study of Mus musculus with 4 samples.

Results

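Mitochondrial ribosomal proteins are the nuclear-encoded Mrpl and Mrps proteins of the large and small subunits of the ribosome inside mitochondria, and their RNAs were compared between mouse embryonic stem cells labelled as Kdm2a knockout and wild-type mouse embryonic stem cells. The genes were taken as every protein-coding gene of the count table whose symbol is Mrpl or Mrps followed by a number and, at most, 1 letter from a to c. This gave 78 of 24116 genes, 49 named Mrpl and 29 named Mrps, and no measured value entered this rule. All 78 passed the filter on low counts, which kept 14194 genes of the table. Symbols were matched from Entrez gene numbers to the RefSeq annotation of GRCm38.p6.

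The study has 4 RNA-seq libraries. The 2 libraries labelled Kdm2a knockout come from embryonic stem cells of strain 12910la that received a Kdm2a guide RNA, were sorted for GFP and were grown from 1 clone, so the line stands for 1 editing event in 1 clone. Their titles say knock out, but their genotype label says Kdm2a knocked down. The 2 wild-type libraries come from embryonic stem cells of the same strain with the genotype label wild type; both groups share a serum medium with LIF on gelatin. No label gives separate cultures for the libraries of a group, so each p-value speaks only of the variation among these 4 libraries, part of which may be technical.

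Each mitochondrial ribosome reads the messenger RNAs of the mitochondrial genome, all of which code for membrane subunits of the respiratory chain and the ATP synthase. Its RNAs are made inside the organelle, whereas its proteins are coded in the nucleus, made in the cytosol and imported. Some of these proteins descend from proteins of the bacterial ribosome, and others have no bacterial counterpart and were added during the evolution of mitochondria. Kdm2a is a histone demethylase that acts on methylated lysine 36 of histone H3 and binds unmethylated CpG-rich DNA, the kind of DNA at which many housekeeping genes start.

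Kdm2a RNA itself did not fall with the label. The gene (chr19:4316144-4398721, GRCm38.p6) had 3710 and 4753 counts in the libraries labelled knockout and 2899 and 3554 counts in wild type, with a log2 fold change of 0.44 (standard error, SE, 0.24) and an adjusted p of 1.00 by edgeR's quasi-likelihood test with Benjamini-Hochberg adjustment. Counts over the whole gene cannot show a small edit in its sequence, and the gene's reads go against a loss of its RNA, so both libraries are called "labelled knockout" throughout. Total counts per library were between 18844246 and 19056529. Summed embryonic stem cell markers were at 6982 and 5279 CPM (counts scaled to one library size, here by library totals) in the libraries labelled knockout and 6763 and 6552 CPM in wild type, and summed fibroblast markers at 65.4 and 30.3 CPM against 92.3 and 39.9 CPM. Of the 10 fibroblast markers, 2 had no count in any library. The sums for primitive endoderm (96.9 and 136 against 113 and 76.8 CPM) and mesoderm (12.9 and 29.5 against 15.5 and 20.1 CPM) were also low. Lama1 gave 1684 of 1847 and 2270 of 2569 endoderm counts in the libraries labelled knockout. Lama1, Foxa2, Sox7 and Dab2 were highest in the second library labelled knockout (2270, 59, 60 and 35 counts). Gata4, Gata6 and Sox17 were highest in the first wild-type library (134, 52 and 14 counts). The stem cell sum holds markers that moved in opposite ways between the wild-type libraries. Nanog had 7332 and 14682 counts there and Zfp42 4972 and 10896. Of the 10 stem cell markers, 6 were lower in the second wild-type library, such as Pou5f1 (20403 and 15654) and Tdgf1 (26542 and 18121). The part of any of these cell types in the results was not tested. The second library labelled knockout stood furthest from the others: the Pearson correlation of log2 CPM over genes was 0.952 between both libraries labelled knockout and 0.968 between both wild-type libraries, but 0.984 between the first library labelled knockout and the first wild-type library and 0.938 between the second library labelled knockout and the first wild-type library.

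None of the 78 genes passed the test for a difference between the libraries labelled knockout and wild type. With edgeR's quasi-likelihood test and Benjamini-Hochberg adjustment over all genes, 0 of 78 genes had an adjusted p under 0.05, against a background of 0% (0 of 14194). At an unadjusted p under 0.05 there were 0 of 78 genes, against 1.7% of all genes tested (242 genes), and the smallest adjusted p among the 78 was 1.00. DESeq2, limma-voom and edgeR's likelihood ratio test also called 0 of the 78, with backgrounds of 0.0141%, 0% and 0.0282%. Fold changes ran from a log2 value of -0.43 for Mrps24 to 0.39 for Mrps33. The median was 0.02, against 0.0029 over all genes tested, and 43 genes had a positive and 35 a negative log2 fold change. That sign split rests on the scaling. With library totals in place of TMM (edgeR's trimmed-mean scaling of libraries) 34 genes were positive, and with upper-quartile scaling 36. The median over all genes tested also fell, to -0.04 with library totals and -0.03 with upper-quartile scaling. Both lay below the medians of the 78 genes, -0.02 and -0.01. With TMM, the median of the 78 was -0.07 without the first library labelled knockout and 0.11 without the second. In a bulk sample, fewer cells of a type and less RNA per cell cannot be told apart.

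A call that misses the threshold does not show that a gene did not differ, so the intervals matter. The 95% interval of the log2 fold change reached at most 1 in size, that is 2-fold either way, for 68 of the 78 genes. For the other 10 it reached further: Mrps33, Mrps24, Mrps36, Mrps30, Mrpl57, Mrpl24, Mrpl52, Mrpl53, Mrpl46 and Mrpl27. The median distance from a fold change to the end of its interval was 0.64, and the smallest was 0.49. All 78 log2 fold changes were under 0.5 in size, against 79.6% of all genes tested and 86.9% of the 8899 genes with CPM in the same range. The median size was 0.10, against 0.22 over all genes tested and 0.19 in that CPM range, and the median SE was 0.27 against 0.35 over all genes.

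**Figure D1:**
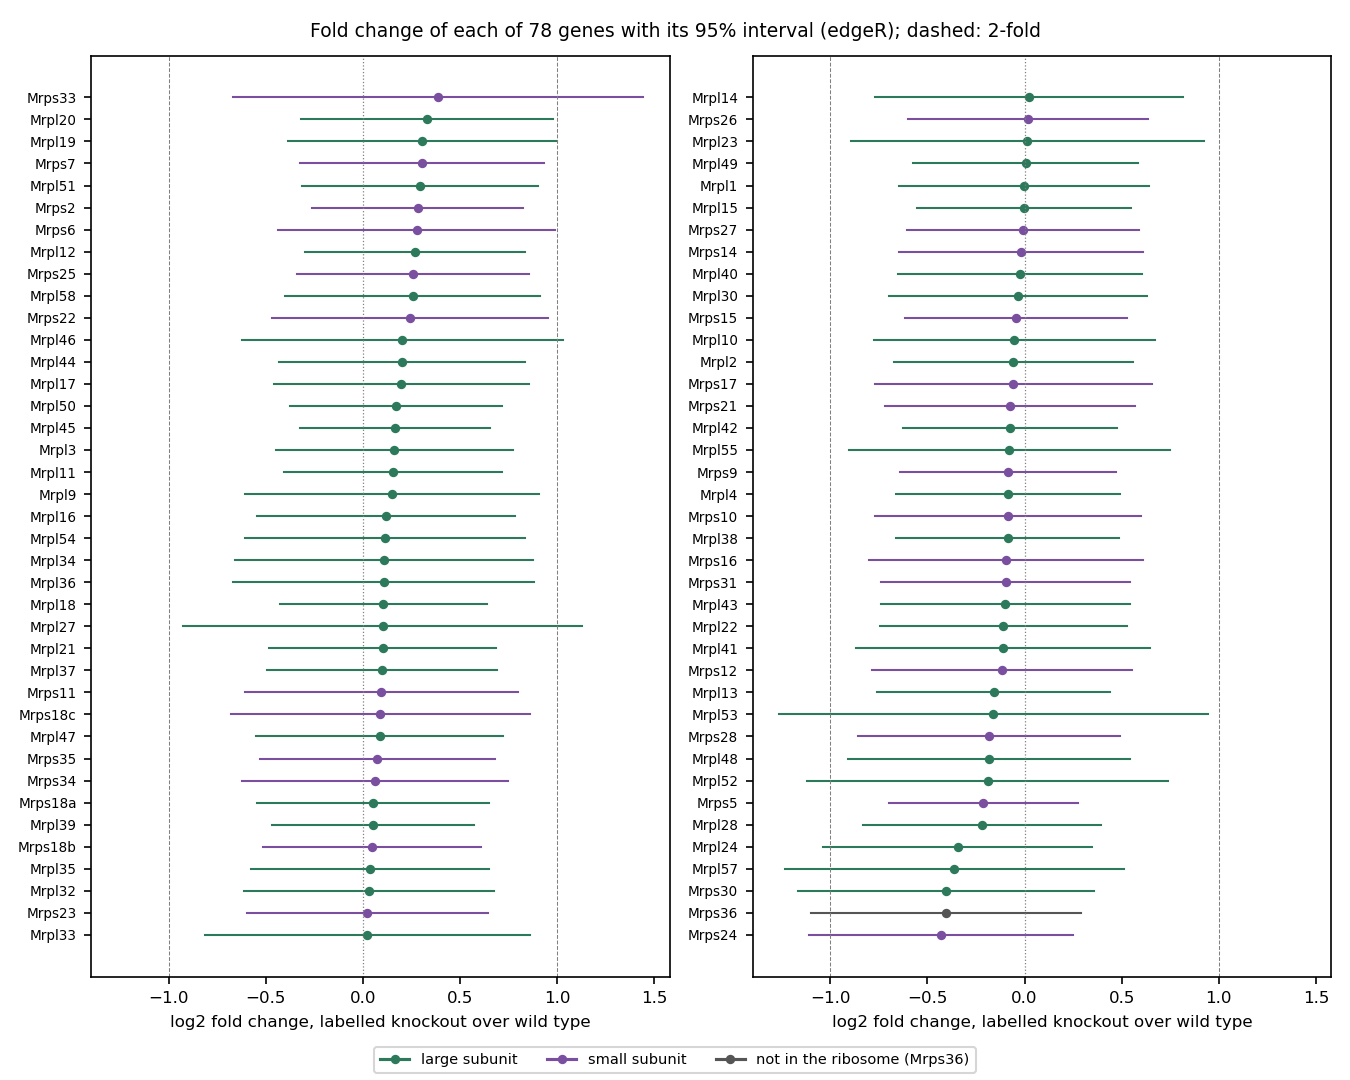
Log2 fold change of each of the 78 genes, libraries labelled knockout over wild type, with its 95% interval from edgeR's quasi-likelihood fit on 2 libraries in each group. All points lie between -0.43 and 0.39, every interval holds 0, and 10 intervals reach past the dashed lines at 2-fold.

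The levels of the 78 genes were of one order in all 4 libraries. Summed over the genes, TMM-scaled CPM came to 3657 and 3223 in the libraries labelled knockout and 3463 and 3383 in wild type. The first library labelled knockout was the highest of the 4 and the second the lowest, so the sums of the groups overlap. Per kilobase of exon (RPKM), the median gene was at 32.3 and 29.1 RPKM in the libraries labelled knockout and at 32.4 and 31.1 RPKM in wild type. Averaged over the 4 libraries, the genes ran from 4.19 to 163 RPKM with a median of 31.2, against a median of 8.79 RPKM over all genes tested, and the central 80% lay between 10.4 and 66.4 RPKM. The ends of the range differed 38.9-fold, although most of these proteins are present once in each ribosome. Exon lengths, which set this scale, depend on the annotated 3′ untranslated regions and ran from 412 to 6712 bases.

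Mrpl42 (mL42; chr10:95480805-95501949), a large-subunit protein with no bacterial counterpart, had the highest level per kilobase, 163 RPKM on average. It was at 119 and 96.4 CPM in the libraries labelled knockout and 122 and 105 CPM in wild type, with overlapping groups and a log2 fold change of -0.08 (SE 0.23). Mrpl34 (bL34m), a short protein of the large subunit, followed with 112 RPKM and had 87.5 and 53.9 CPM in the libraries labelled knockout, against 78.01 and 53.0 CPM in wild type. In both groups its first library was well above its second. Mrps5 (uS5m), at the entry of the messenger RNA channel of the small subunit, came next with 97.8 RPKM. It was at 129.8 and 130.0 CPM in the libraries labelled knockout, both below the 154 and 147 CPM of wild type, and its log2 fold change of -0.21 had an interval of -0.70 to 0.28. At the low end, Mrpl19 (bL19m) averaged 4.19 RPKM, Mrpl48 (mL48) 4.98 RPKM and Mrpl17 (bL17m) 8.14 RPKM. Of these, Mrpl48 had 19.1 and 24.4 CPM in the libraries labelled knockout and 27.8 and 21.6 CPM in wild type, and Mrpl17 had 47.9 and 68.9 CPM against 46.1 and 55.7 CPM. For both genes the groups overlapped.

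**Figure D2:**
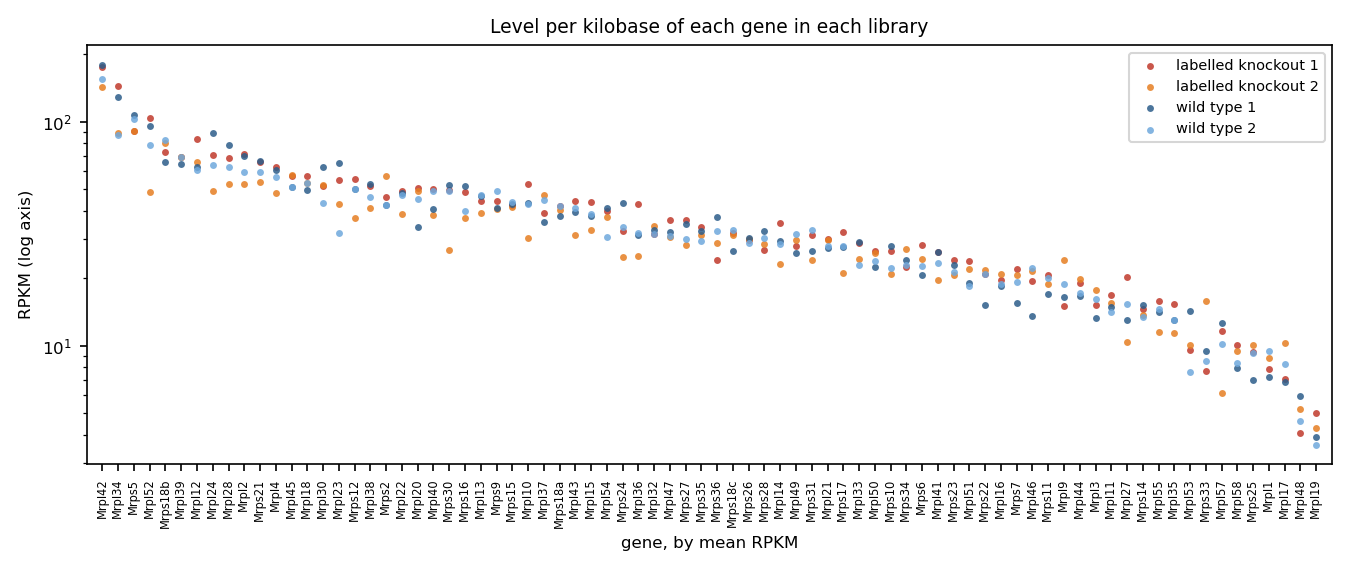
RPKM of each of the 78 genes in each of the 4 libraries, on a log axis, with genes ordered by their mean. Means run from 163 RPKM for Mrpl42 to 4.19 RPKM for Mrpl19, and the spread between libraries of a gene is small beside the range between genes.

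Genes of this family are often reached by the transcription factors NRF1 and GABP (an ETS-family factor), which are known regulators of nuclear genes for mitochondria, so the DNA before the start of 6 genes is shown. These are the 5 genes whose run before the start, without GENCODE exons and outside the gene's own RefSeq span, holds a match, and the gap of the only pair of family members that face away from each other. Each run is the RefSeq sequence of GRCm38.p6 on the gene's own strand, 5′ to 3′. Capitals mark matches to the NRF1 letters, which are GCGCACGCGC with any base allowed at the sixth position, or to the ETS letters CCGGAAG, both read on both strands. Mrpl44 (chr1:79775893-79776017, plus strand) shows the NRF1 letters. Mrpl34 (chr8:71464801-71464925, plus strand), Mrpl43 (chr19:45006443-45006557, minus strand), Mrpl52 (chr14:54426784-54426908, plus strand) and Mrps22 (chr9:98601680-98601804, minus strand) show the ETS letters, Mrpl43 in 2 places. The run before Mrpl46, toward Mrps11 (chr7:78783090-78783118, minus strand), holds neither.
Mrpl44: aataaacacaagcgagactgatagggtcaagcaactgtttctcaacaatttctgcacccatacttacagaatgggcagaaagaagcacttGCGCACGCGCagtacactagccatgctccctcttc
Mrpl34: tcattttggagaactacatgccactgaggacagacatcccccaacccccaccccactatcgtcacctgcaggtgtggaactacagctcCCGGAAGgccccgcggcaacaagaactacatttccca
Mrpl43: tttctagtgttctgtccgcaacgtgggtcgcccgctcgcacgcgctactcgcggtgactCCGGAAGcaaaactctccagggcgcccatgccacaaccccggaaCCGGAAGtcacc
Mrpl52: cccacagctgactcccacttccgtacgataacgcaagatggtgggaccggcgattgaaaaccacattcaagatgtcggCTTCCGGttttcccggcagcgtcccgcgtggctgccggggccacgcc
Mrps22: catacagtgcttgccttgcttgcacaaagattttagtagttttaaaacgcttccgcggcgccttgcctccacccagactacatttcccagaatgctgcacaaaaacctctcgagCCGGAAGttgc
Mrpl46: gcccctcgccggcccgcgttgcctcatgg

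Over the family, 69 of the 78 genes had an entry in RefSeq's table of windows from 250 bases before to 50 bases after a start, and a gene was counted where any of its windows held the letters. The NRF1 letters stood at 13 of these genes (18.8%), against 11.1% of 10729 protein-coding genes tested and 5.19% of all 27025 genes in the table. The ETS letters stood at 26 genes (37.7%), against 19.3% and 9.93%. A motif of the factor YY1 stood at 5 genes (7.25%), against 2.26% and 0.995%, and TATAAA at 5 genes (7.25%), against 8.57% and 15.7%. The ETS and YY1 letters can overlap by AAG, and no window of the family had such an overlap. A match is a description of letters, not a site in use. Genes with the NRF1 letters had a median log2 fold change of 0.03 and those without 0.02, and for the ETS letters the medians were 0.04 and 0.01. The genes without an entry were Mrpl4, Mrpl13, Mrpl15, Mrpl19, Mrpl38, Mrpl54, Mrps28, Mrps34 and Mrps35. Of the printed genes, Mrpl43 (mL43), whose exons overlap those of Twnk, had 53.6 and 37.8 CPM in the libraries labelled knockout and 48.1 and 49.7 CPM in wild type. Mrps22 (mS22), a small-subunit protein with no bacterial counterpart, had 25.1 and 26.1 CPM in the libraries labelled knockout and 18.2 and 25.0 CPM in wild type. The groups overlapped for Mrpl43 and were barely apart for Mrps22.

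The large subunit, which joins amino acids and holds the exit tunnel, was represented by 51 genes. Its summed level was 2543 and 2163 CPM in the libraries labelled knockout and 2379 and 2287 CPM in wild type, and its median log2 fold change was 0.03. The 26 genes of the small subunit, which decodes the messenger RNA, summed to 1097 and 1040 CPM in the libraries labelled knockout and 1057 and 1074 CPM in wild type, with a median of 0.0046. For both subunits the first library labelled knockout was above both wild-type libraries and the second was below both. The classes by descent follow the first letter of the names given in brackets, u or b for bacterial homologues and m for mitochondria-specific proteins. Split by descent, the median log2 fold change was 0.03 for the 30 bacterial homologues of the large subunit, 0.0051 for its 21 mitochondria-specific proteins, -0.07 for the 16 bacterial homologues of the small subunit and 0.05 for its 10 mitochondria-specific proteins. With library totals in place of TMM, the median over all 78 was -0.02, against -0.04 over all genes tested. With upper-quartile scaling these medians were -0.01 and -0.03. Mrps36 (chr13:100735940-100744659) belongs to neither subunit: despite its name, its protein is a part of the 2-oxoglutarate dehydrogenase complex of the citric acid cycle.

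In 17 of the 78 genes (21.8%) both libraries labelled knockout were above both wild-type libraries, against a background of 11.7% of all genes tested. In 6 genes (7.69%) both were below, against a background of 12.7%. These counts come with 0 calls, and the genes are not independent of each other, since all are read in the same 4 libraries. Both counts rest on TMM-scaled CPM and were not repeated under other scalings. The TMM factors were 1.005 and 0.964 in the libraries labelled knockout and 1.008 and 1.024 in wild type. Shares above wild type were similar for mitochondrial assembly factors (22.6%), translation factors (23.8%) and aminoacyl-tRNA synthetases (26.3%), but 5.33% for oxidative phosphorylation subunits. The higher group held 12 large-subunit genes (Mrpl11, Mrpl12, Mrpl16, Mrpl18, Mrpl19, Mrpl20, Mrpl21, Mrpl44, Mrpl45, Mrpl50, Mrpl51 and Mrpl58) and 5 of the small subunit (Mrps2, Mrps6, Mrps7, Mrps22 and Mrps25). The lower group held Mrpl13, Mrps5, Mrps15, Mrps24, Mrps28 and Mrps36.

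Among proteins of the factor-binding stalk, Mrpl12 (bL12m; chr11:120484637-120488754), which also binds the mitochondrial RNA polymerase in mammalian cells, had 81.8 and 64.6 CPM in the libraries labelled knockout and 61.8 and 59.7 CPM in wild type. Both libraries labelled knockout were higher, and the log2 fold change was 0.27 (95% interval -0.30 to 0.84), or 0.086 to 0.43 with 1 library left out at a time. Mrpl11 (uL11m), at the base of the stalk, had 51.0 and 47.1 CPM in the libraries labelled knockout and 45.0 and 43.1 CPM in wild type, a log2 fold change of 0.15 (SE 0.24). Mrpl10 (uL10m), which anchors the copies of Mrpl12, behaved differently between its libraries. It had 89.1 and 51.2 CPM in the libraries labelled knockout and 73.4 and 72.0 CPM in wild type, with the highest and the lowest value in the same group.

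Mrpl45 (mL45), at the exit of the tunnel, holds the ribosome to the inner membrane, where its products are inserted. It had 138 and 140.3 CPM in the libraries labelled knockout and 124.7 and 124 CPM in wild type, and its log2 fold change of 0.16 had the narrow interval of -0.33 to 0.65. The libraries of each group were within a few CPM of each other, and the groups did not overlap. Mrpl44 (mL44), which has a ribonuclease III-like fold and is needed to assemble the large subunit in human cells, had 27.2 and 28.3 CPM in the libraries labelled knockout and 23.8 and 24.4 CPM in wild type (log2 fold change 0.20, SE 0.27). Mrpl24 (uL24m), of whose exons 37.1% overlap those of Rrnad1, had 71.6 and 49.2 CPM in the libraries labelled knockout and 89.0 and 64.4 CPM in wild type, with a log2 fold change of -0.35 (SE 0.29). The first library of each group was the higher one for Mrpl24, and the groups overlap. Leaving out 1 library at a time moved its value between -0.64 and -0.09.

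Mrpl20 (bL20m; chr4:155802878-155808831), a protein that binds ribosomal RNA early in bacterial assembly, had one of the largest positive values. It was at 38.8 and 37.4 CPM in the libraries labelled knockout and 25.9 and 34.6 CPM in wild type, a log2 fold change of 0.33 (95% interval -0.32 to 0.98), or 0.14 to 0.56 with 1 library left out at a time. Mrpl19 (bL19m) lies at the boundary between the subunits, and 39.3% of its exons overlap those of Gcfc2. It had 24.9 and 21.3 CPM in the libraries labelled knockout and 19.4 and 18.0 CPM in wild type, a log2 fold change of 0.31 (SE 0.29). Mrpl51 (mL51) had 36.3 and 33.3 CPM in the libraries labelled knockout and 28.8 and 28.0 CPM in wild type, a log2 fold change of 0.29 (SE 0.26). For all 3 genes both libraries labelled knockout were higher, and for Mrpl20 the second wild-type library came close to them.

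Mrpl58 (mL62, also called ICT1) is a peptidyl-tRNA hydrolase that releases stalled chains and is also built into the large subunit. It had 26.1 and 24.6 CPM in the libraries labelled knockout and 20.7 and 21.8 CPM in wild type, and both libraries labelled knockout were higher (log2 fold change 0.26, 95% interval -0.40 to 0.91). Mrps30 (mL65; chr13:118380110-118387252), first named as a small-subunit protein and as the pro-apoptotic PDCD9, belongs to the large subunit, and 37.8% of its exons overlap those of B430218F22Rik. It had 78.7 and 42.7 CPM in the libraries labelled knockout and 82.9 and 77.8 CPM in wild type, so that 1 library labelled knockout was near wild type and the other far below. The log2 fold change was -0.40 (SE 0.32), and it was -0.91 without the first library labelled knockout and -0.03 without the second. Mrpl37 (mL37), a member of the same protein family as Mrps30, had 58.5 and 70.4 CPM in the libraries labelled knockout and 53.4 and 67.1 CPM in wild type. Its groups overlapped, with the second library higher in both. Mrpl57 (mL63) had 30.9 and 16.3 CPM in the libraries labelled knockout and 33.5 and 27.1 CPM in wild type, a log2 fold change of -0.36 (SE 0.37).

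In the small subunit, the largest positive value was that of Mrps33 (mS33; chr6:39801804-39810936), at 8.10 and 16.7 CPM in the libraries labelled knockout and 9.98 and 8.97 CPM in wild type. It rested on 1 library: the second library labelled knockout stood above the other 3, and the first was below both wild-type libraries. The log2 fold change of 0.39 had an SE of 0.45, the interval was -0.67 to 1.44, and without the second library labelled knockout the value was -0.22. Mrps24 (uS3m; chr11:5703982-5707701), at the channel through which messenger RNA enters, had the largest negative value. It had 32.2 and 24.8 CPM in the libraries labelled knockout and 43.0 and 33.8 CPM in wild type, and the groups were close but did not overlap (log2 fold change -0.43, 95% interval -1.11 to 0.25). Mrps36 had 16.98 and 20.1 CPM in the libraries labelled knockout and 26.2 and 22.8 CPM in wild type (log2 fold change -0.40, SE 0.29), again with both libraries labelled knockout lower.

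Among proteins at the heart of the small subunit, Mrps7 (uS7m) lies in the head of the subunit. It had 38.5 and 36.2 CPM in the libraries labelled knockout and 27.0 and 33.5 CPM in wild type, a log2 fold change of 0.30 (SE 0.27) with both libraries labelled knockout higher. With 1 library left out at a time it was 0.16 to 0.48. Mrps12 (uS12m), the counterpart of the bacterial protein in which streptomycin resistance arises, had 51.7 and 34.5 CPM in the libraries labelled knockout and 46.6 and 46.8 CPM in wild type. The wild-type libraries agreed closely for Mrps12 and lay between the libraries labelled knockout. Mrps27 (mS27), a pentatricopeptide-repeat protein that binds RNA, had 67.5 and 51.9 CPM in the libraries labelled knockout and 64.3 and 55.6 CPM in wild type, a log2 fold change of -0.0072 (95% interval -0.61 to 0.59). Mrps2 (uS2m) had 95.5 and 119 CPM in the libraries labelled knockout and 88.5 and 88.3 CPM in wild type, a log2 fold change of 0.28 (SE 0.23).

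Mammals have 3 descendants of the bacterial S18 protein, which occupy different places. Mrps18c (bS18m) sits where the bacterial protein does, Mrps18b (mS40) elsewhere on the small subunit and Mrps18a (mL66) on the large one. By the letter of their names, Mrps18b and Mrps18a are counted as mitochondria-specific in the split by descent, although both descend from a bacterial protein. Per kilobase, Mrps18b was the highest at 75.5 RPKM, Mrps18a had 40.6 RPKM and Mrps18c 30.6 RPKM. In CPM, Mrps18b was at 79.2 and 86.3 in the libraries labelled knockout and 70.9 and 89.3 in wild type, Mrps18a at 36.5 and 35.02 against 32.8 and 36.1, and Mrps18c at 15.99 and 15.7 against 13.3 and 16.4. The groups overlapped for all 3, and their log2 fold changes were 0.05 (SE 0.24), 0.05 (SE 0.25) and 0.09 (SE 0.33). Under library totals the value for Mrps18b was -0.00074.

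For most of the genes, the libraries labelled knockout differed from each other by more than the groups did. The absolute difference between the second and the first library labelled knockout was larger than the absolute log2 fold change for 51 of the 78 genes. This was a smaller share than the 71.9% of all genes tested. The medians below are of that absolute difference within a label. The median was 0.24 between the libraries labelled knockout and 0.16 between the wild-type libraries, against 0.39 and 0.34 over all genes tested. Of the 78 genes, 53 (67.9%) were lower in the second library labelled knockout than in the first, against a background of 50% of all genes tested. Relative to the wild-type mean, the median gene of the family stood at 0.11 in the first library labelled knockout and -0.05 in the second on the log2 scale, against 0.02 and -0.02 in the wild-type libraries. Over all genes tested, these medians were between -0.01 and 0.01.

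The difference between the libraries labelled knockout was described by descent, with no test of the classes against each other. Of the 46 bacterial homologues 36 were lower in the second library than in the first (78.3%), and of the 31 mitochondria-specific genes 17 (54.8%). In 12 genes the second library was lower by more than 0.5 on the log2 scale: Mrpl52, Mrpl27, Mrpl57, Mrps30, Mrpl10, Mrpl36, Mrpl34, Mrps17, Mrpl14, Mrps12, Mrpl24 and Mrpl43. In 3 it was higher by as much, namely Mrps33, Mrpl17 and Mrpl9. For comparison, 20.7% of all genes tested were lower and 20.1% higher by that amount. Mrpl52 (mL52), for example, had 42.9 and 19.96 CPM in the libraries labelled knockout and 39.4 and 32.4 CPM in wild type, and Mrpl36 (bL36m), a short bacterial homologue, had 39.4 and 23.1 CPM against 28.7 and 29.3 CPM. Both wild-type libraries lay between the libraries labelled knockout for these genes. Across the 78 genes the difference between the libraries labelled knockout had a Pearson correlation of 0.25 with log2 exon length, and that between the wild-type libraries 0.31, as a description over genes that share libraries. Over 13925 genes these correlations were 0.14 and 0.10. The part of transcript length in the result was not tested.

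**Figure D3:**
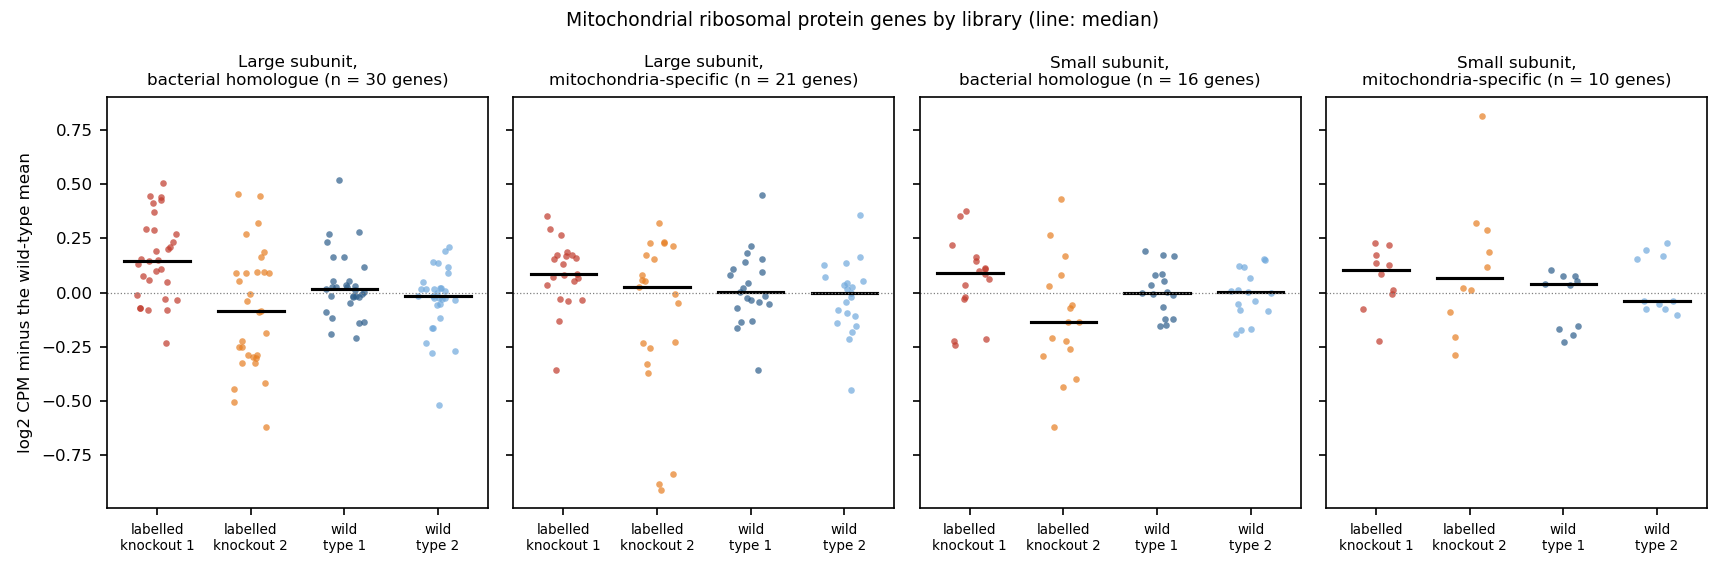
Log2 CPM of each gene minus its wild-type mean, by library, for the 4 classes of mitochondrial ribosomal proteins, with the median of the class as a line. The median of the first library labelled knockout is above 0 in each class, and that of the second is below 0 for both classes of bacterial homologues.

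Between the wild-type libraries only 5 genes differed by more than 0.5: Mrpl23, Mrpl53, Mrpl46, Mrpl34 and Mrpl30. Mrpl23 (uL23m), a protein of the tunnel exit, had the widest gap, with 38.0 and 29.7 CPM in the libraries labelled knockout and 45.1 and 21.9 CPM in wild type. Both libraries labelled knockout lay between the wild-type libraries. Across the 78 genes, the difference between the libraries labelled knockout and that between the wild-type libraries had a Pearson correlation of 0.26 (0.35 over all genes tested), given as a description.

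**Figure D4:**
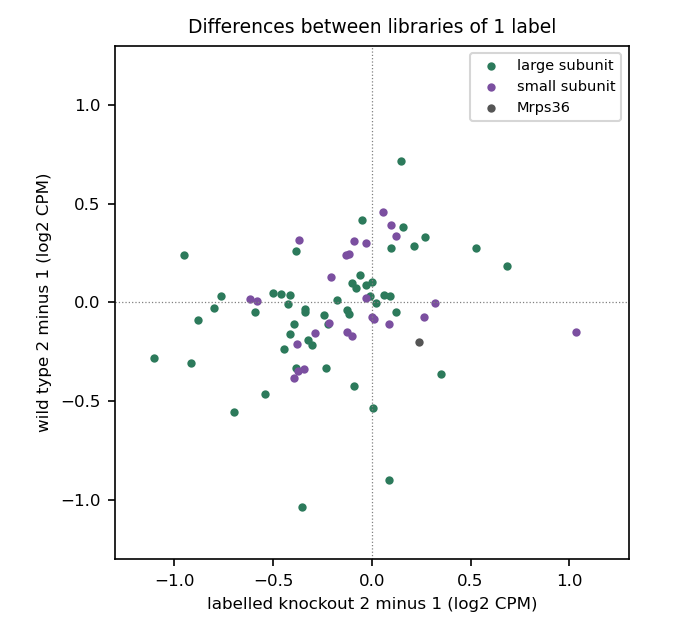
Each point is 1 of the 78 genes, with the second minus the first library labelled knockout on the x axis and the second minus the first wild-type library on the y axis, both in log2 CPM. More points lie left of 0 (53 genes) than right of it, and the x values spread more widely than the y values.

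Other genes of mitochondrial gene expression and function were read from lists drawn up from general knowledge of the mitochondrion. None of their genes passed edgeR's quasi-likelihood test with Benjamini-Hochberg adjustment, with an unadjusted p under 0.05 for 0 genes of any mitochondrial list. The 5 proteins of the mitochondrial ribosome with other names, such as Dap3 and Ptcd3, had a median log2 fold change of -0.11. The 31 assembly and RNA-modification factors had a median of 0.07, the 21 translation factors of mitochondria -0.02, and the 19 mitochondrial aminoacyl-tRNA synthetases, which load transfer RNAs, 0.11. Tufm, the mitochondrial elongation factor Tu, had 182 and 58.7 CPM in the libraries labelled knockout and 151 and 152 CPM in wild type, with the second library labelled knockout far below the other 3. Dap3 had 121 and 89.1 CPM in the libraries labelled knockout and 121 and 115 CPM in wild type, and Ptcd3 104 and 128 CPM against 70.9 and 126 CPM. For these 2 the groups overlapped.

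The 75 nuclear-encoded subunits of oxidative phosphorylation, whose mitochondrial partners the ribosome makes, had a median of -0.0076 and a different library pattern. Their medians relative to wild type were 0.11 and -0.13 in the libraries labelled knockout and 0.14 and -0.14 in wild type, so the first library of each label was the higher one. The 29 protein import genes had a median log2 fold change of 0.09, and 8 of them (27.6%) had both libraries labelled knockout above wild type and 1 (3.45%) below, against 11.7% and 12.7% of all genes tested. The 21 genes of mitochondrial transcription and DNA maintenance had a median of -0.05. The RNA polymerase Polrmt had 95.9 and 64.8 CPM in the libraries labelled knockout and 93.4 and 66.7 CPM in wild type, and the transcription factor Tfam had 76.1 and 68.9 CPM against 60.7 and 84.3 CPM. Both overlapped between the groups. The 83 cytosolic ribosomal proteins, which build the ribosome of the cytosol, had a median of 0.07 and 2 genes (Rpl6 and Rpl15) with an unadjusted p under 0.05, with medians by library of 0.08 and 0.10 in the libraries labelled knockout and 0.24 and -0.24 in wild type. Their wide wild-type spread sets them apart from the mitochondrial ribosomal proteins as a description; that difference was not tested.

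**Figure D5:**
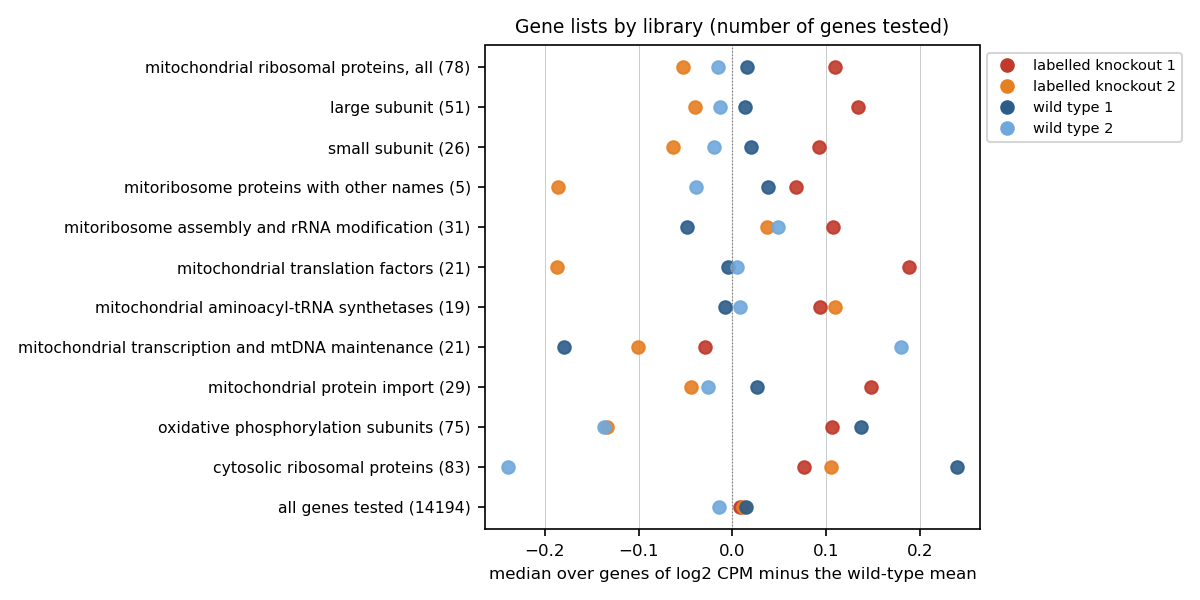
Median over the genes of each list of log2 CPM minus the wild-type mean, by library. The first library labelled knockout lies highest and the second lowest for the mitochondrial ribosomal proteins. The same order holds for the mitochondrial translation factors, the ribosome proteins with other names and the import genes, but not for the other lists outside the family. The wild-type libraries lie furthest apart for the cytosolic ribosomal proteins.

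Regulators known to act on nuclear genes for mitochondria were tested in 15 of 16 cases. Their median log2 fold change was 0.18, and 0 passed. Nrf1 had 55.5 and 70.8 CPM in the libraries labelled knockout and 48.6 and 61.0 CPM in wild type, and the ETS subunit Gabpa had 207 and 214 CPM against 207 and 253 CPM. Its partner Gabpb1 had 62.4 and 49.2 CPM in the libraries labelled knockout and 69.4 and 65.2 CPM in wild type, both libraries labelled knockout lower. The stress-response list of 20 genes had 19 tested, with a median of 0.11.

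At the level of the genome, the 78 genes lie on 17 chromosomes, with 11 on chromosome 11 and 8 on chromosome 17. Of the 78, 21 (26.9%) have a divergent partner, against 11.2% of tested protein-coding genes. Such a partner is a protein-coding gene on the opposite strand that faces away, with its start within 1000 bases. Of the gaps between these starts, 18 are under 300 bases. The pair Mrpl46 and Mrps11 is the only one of 2 family members, with their nearest GENCODE starts 30 bases apart on chromosome 7 (the Mrpl46 run printed above lies between them). Mrpl46 (mL46) had 20.1 and 22.3 CPM in the libraries labelled knockout and 13.9 and 22.9 CPM in wild type, and Mrps11 (uS11m), a protein of the small subunit's platform, had 21.6 and 19.7 CPM against 17.8 and 21.0 CPM. Both were lowest in the first wild-type library. None of the 21 partner genes passed edgeR's quasi-likelihood test, and their median log2 fold change was 0.09. Zfp189, the partner of Mrpl50, was the only partner with both libraries labelled knockout above wild type (log2 fold change 0.82), and Ncapd2, the partner of Mrpl51, the only one with both below (-0.31).

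Some of the genes share exon sequence with another gene, and how reads from the shared stretches were counted is not known. Exons of 15 of the 78 genes overlap those of another protein-coding gene, in 7 by more than 10% of their length: Mrpl53, Mrps25, Mrpl19, Mrps30, Mrpl24, Mrpl43 and Mrps6. Mrpl53 and Mrps6 overlap their neighbours on the same strand, where no strand setting would tell the reads apart. The rest of these genes overlap a neighbour on the opposite strand. The strand setting of the counting is not given in the sources used here, so whether those reads were told apart is not known. Mrpl53, whose exons lie wholly within Gm42688, had 5.90 and 6.27 CPM in the libraries labelled knockout and 8.88 and 4.72 CPM in wild type, a log2 fold change of -0.16 (SE 0.47).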

How the data were processed

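RNA-seq reads were counted by the authors per gene, and the deposited table holds raw counts. The submitters' processing notes name HISAT2, featureCounts and mm10. Versions, the strand setting and the handling of reads with several matches are not given in the sources used. The table's control columns, numbered 1 and 2, were read as the wild-type samples of the same number. Of 24116 genes, 24061 were matched to a symbol in RefSeq GRCm38.p6, and unmatched genes held 0.0334% to 0.0439% of counts. A count of 0 allows up to 3 counts, 0.157 to 0.159 CPM, for counting error only.

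edgeR 4.0.16 (R 4.3.3) was run with filterByExpr (14194 genes kept), TMM scaling, the two-sided quasi-likelihood F test of genotype alone, and Benjamini-Hochberg adjustment over all genes with a threshold of 0.05. The log2 fold change is labelled knockout minus wild type, its SE is its size divided by the square root of F, and log2 CPM values carry a prior count of 2. RPKM is TMM-scaled CPM per kilobase of exon from GENCODE M21 transcripts paired to RefSeq. The step was tested on simulated counts of 13990 genes. It called 16% of 50 genes changed 2-fold and 80% of 50 genes changed 4-fold, with 12 false calls among unchanged genes. These rates hold for the simulated counts and were not measured in the 4 libraries. Alternatives were RLE, library-total and upper-quartile scaling, no filter or a CPM filter, DESeq2 1.42.0, limma-voom (limma 3.58.1), the likelihood ratio test, a replicate block and leaving out each library.

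The genes and lists were chosen with earlier results of these data known. Genes described singly are Kdm2a, the 5 largest fold changes in each direction (mean CPM of at least 5), the 3 lowest p, the 3 highest and 3 lowest RPKM, the Mrps18 genes and 10 with a known role; others given with values were chosen after their values were seen. Mitochondrially encoded genes and transposable elements were not analysed here.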

Additional observations from a re-analysis of the deposited data

How the results depend on the processing

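With 2 libraries in each group, only large differences could be called. None of the 78 genes passed in any setting run (scaling, filter, tool, threshold, replicate block, 1 library left out). Over all genes the count was 0 with edgeR's quasi-likelihood test, 2 with DESeq2 and 4 with the likelihood ratio test, and between 0 and 91 when 1 library was left out: 91 without the first library labelled knockout, 8 without the second, 0 without either wild-type library; the cause was not tested. The lone library is then assumed to vary like the other group. The median log2 fold change of the 78 ran from -0.067 without the first library labelled knockout to 0.11 without the second. Without the first, 3 of the 78 genes (3.85%: Mrps30, Mrpl57 and Mrpl52) had an unadjusted p under 0.05, against 12.5% of all genes tested (1843 of 14714), and the lowest adjusted p (edgeR) was 0.270. The sample titles give the replicates only a number, so whether same-numbered libraries were handled together is not known. Deviations of same-numbered libraries correlated at 0.35 over genes. With the number as a block, 0 genes were called and the median of the 78 was 0.02. By edgeR's quasi-likelihood test, 735 genes had an unadjusted p under 0.05 with the block, against 242 without it. A shared batch was not tested. Leaving out 1 library turned the sign for 12 of the genes described, with log2 fold changes of -0.088 to 0.43 for Mrpl17, -0.28 to 0.42 for Mrpl34, -0.058 to 0.28 for Mrpl37, -0.24 to 0.072 for Mrpl42, -0.37 to 0.0094 for Mrpl48, -0.90 to 0.030 for Mrpl57, -0.44 to 0.15 for Mrps12, -0.015 to 0.13 for Mrps18a, -0.11 to 0.23 for Mrps18b, -0.054 to 0.26 for Mrps18c, -0.21 to 0.17 for Mrps27 and -0.22 to 0.82 for Mrps33. Of the genes described that kept their sign, Mrpl11 (0.092 to 0.22), Mrpl19 (0.19 to 0.42) and Mrps24 (-0.63 to -0.25) also moved by over 1.5 times, as did Mrpl12, Mrpl20, Mrpl24, Mrps7 and Mrps30 with the values given above. Under the other settings, 233 of 234 values of the 26 genes kept their sign and side of the threshold; Mrps18b was at -0.00074 with library totals.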

Other observations

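Mrpl23 lies on chromosome 7 (142532467 to 142540747 in GRCm38.p6) beside the imprinted long non-coding RNA gene H19, which spans 142575530 to 142578146. H19 had 8 and 46 counts in the libraries labelled knockout and 235 and 84 counts in wild type. Mrpl23 did not share that order, since both of its values in the libraries labelled knockout lay between those of wild type.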
